A study of Mus musculus with 6 samples.

Results

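The proteasome is the protease that degrades most ubiquitin-tagged proteins of the cytosol and nucleus. Its 20S core is a barrel of alpha rings, which gate the entrance, and beta rings, which hold the proteolytic sites. The 19S cap binds ubiquitin chains, unfolds the substrate with a ring of ATPases and feeds it into the core, and dedicated chaperones help to assemble both parts. In cells exposed to interferon gamma, other catalytic beta subunits replace the constitutive ones to form the immunoproteasome, and the PA28 activator made of Psme1 and Psme2 can dock in place of the cap. Transcription of subunit genes is known to be raised by NFE2L1 when proteasome activity falls, and subunit genes have also been described as targets of NRF2, the product of Nfe2l2.

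The genes described here are those whose symbol is Psm followed by a letter from a to g and a number, together with Pomp, Adrm1 and Paaf1. In the authors' deposited table, 47 of 16472 genes met this rule. They comprised 14 constitutive 20S core subunits, 18 subunits of the 19S cap, 2 immunoproteasome subunits, 8 assembly chaperones, 4 activators and 1 inhibitor. Psmb8, Psmb11, Psma8 and Paaf1 were looked for by the same rule and were not analysed here.

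The samples were HT22 cells, an immortalised mouse hippocampal line, in 2 groups of 3 libraries. One group received AA147, a small molecule known to activate ATF6 and NRF2, for 16 h, at a dose that the labels write as 10 mM. Whether that unit is a slip for micromolar was not settled from the sources used here. The other group received the DMSO vehicle for 16 h, and both groups share the growth protocol of the labels, in DMEM with serum. The labels do not say whether replicates were separate cultures, so the p-values measure the spread between these libraries, which may be technical.

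Values of single libraries and their depths were not analysed here, because the table holds 1 line per gene. The level of a gene is its mean normalized count over the 6 libraries, and a difference is a log2 fold change with the authors' standard error (SE). Intervals below are 95% intervals, computed from that SE under a normal distribution and not adjusted for the number of genes. The table does not name the numerator. Positive values are read as higher with AA147, because NRF2 targets such as Nqo1, at 0.93 (SE 0.067) in the authors' deposited table, were positive, and every direction below depends on that reading. A gene is called when the authors' DESeq2 adjusted p is under 0.05. Of the 15 neuronal markers looked for, 12 were not analysed here, and in the authors' deposited table Tubb3 had a mean of 1199, Stmn2 of 6.24 and Slc17a7 of 3.93. The mesenchymal genes Col1a1 and Col1a2 had means of 139176 and 254004 there. The cells are therefore called by their line name only.

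The antioxidant response element, the sequence that NRF2 and NFE2L1 recognise, has been described in promoters of proteasome genes and its core was searched for in their promoter windows. The windows were those of RefSeq (GRCm38.p6, not the mm9 build of the deposited comparison), from 250 bases before to 50 bases after each start, and 40 of the 47 genes matched one. The letters TGACNNNGC were searched on both strands. They occurred in 7 of the 40 genes, 17.5%, against 14% of all 27025 genes and 12.4% of all windows of the same length. The stretches that hold them are printed 5′ to 3′ along the gene, with the match in capitals, because they include 3 of the 8 genes with a positive call as well as 4 genes that were not called. A match on the opposite strand reads GCNNNGTCA.
Psmb5: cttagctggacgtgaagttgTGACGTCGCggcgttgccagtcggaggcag
Psmc6: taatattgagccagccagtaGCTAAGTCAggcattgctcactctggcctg
Psme4: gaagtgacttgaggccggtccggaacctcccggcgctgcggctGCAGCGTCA
Psmb6: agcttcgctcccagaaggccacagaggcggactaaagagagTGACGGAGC
Adrm1: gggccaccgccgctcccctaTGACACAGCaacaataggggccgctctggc
Psmd12: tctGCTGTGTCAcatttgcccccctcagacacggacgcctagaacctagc
Psmd9: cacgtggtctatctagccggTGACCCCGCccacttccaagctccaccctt
The Psmb5 stretch lies at chr14:54618013-54618062 on the minus strand, and its match runs from base -47 to base -39 before the start. The Psmc6 stretch lies at chr14:45329577-45329626 on the plus strand, with its match from -227 to -219. The Psme4 stretch lies at chr11:30771725-30771776 on the plus strand, and its match begins at -7 and ends at base 2 after the start. The stretches of the uncalled genes lie at chr11:70525307-70525356 for Psmb6, chr2:180171406-180171455 for Adrm1, chr11:107479278-107479327 for Psmd12 and chr5:123228139-123228188 for Psmd9, all on the plus strand. A match of letters is a description of these windows and shows no binding.

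Further motifs were searched after the values had been seen, on both strands and in the same windows. The shares of all genes are over the 27025 genes with a window, where the deposited table holds 16472. Shares among genes of similar level were not computed. The ETS core CCGGAAG was found in 16 of the 40 proteasome genes, 40%, and in 9.93% of all genes. It was present in 5 of the 8 genes with a positive call, which were Psmc6, Psmd2, Psmd4, Psmd11 and Psme4, and in 11 of 30 uncalled genes. The NF-Y box CCAAT was found in 14 of the 40 genes, 35%, against 41.1% of all genes. The core of the interferon-stimulated response element, taken as GAAA, any 2 bases and GAAA, was found in 5 genes, 12.5% against 3.99%, which were Psmb3, Psmd4, Psmd9, Psme1 and Psmg4. The gamma-activated site core TTCNNNGAA was found in Psmd2 and Psmg1, 5% against 9.55%. Of the called negative genes, Psmb10 and Psme2 held none of these letters in their windows. No match of 1 motif overlapped a match of another.

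Most proteasome transcripts differed little between AA147 and vehicle. In the authors' deposited table, 10 of the 47 genes were called, 21.3%, beside 20.2% of all 13597 tested genes, so the share of called genes was near the background. The calls divided by direction, with 8 positive, or 17% against a background of 9.05%, and 2 negative, or 4.26% against 11.1%. Among genes with a mean from 1000 to 10000, of which 27.3% were called, the background was 12.9% positive and 14.4% negative. The positive calls were Psmb5, Psmc6, Psmd2, Psmd4, Psmd11, Psmd5, Psme4 and Psmf1, and the negative calls were Psmb10 and Psme2. The median of all 47 genes was 0.09 on the log2 scale, with a range from -0.43 to 0.34, and that of all tested genes was 0.01. Of the 37 uncalled genes, 30 had an interval wholly between -0.3 and 0.3. A change of more than 23.1% upward lay outside the interval of each of these. Among all tested genes, 4297 of the 10856 uncalled had such an interval. Among those with a mean from 1000 to 10000, 3144 of the 3950 uncalled did.

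**Figure D1:**
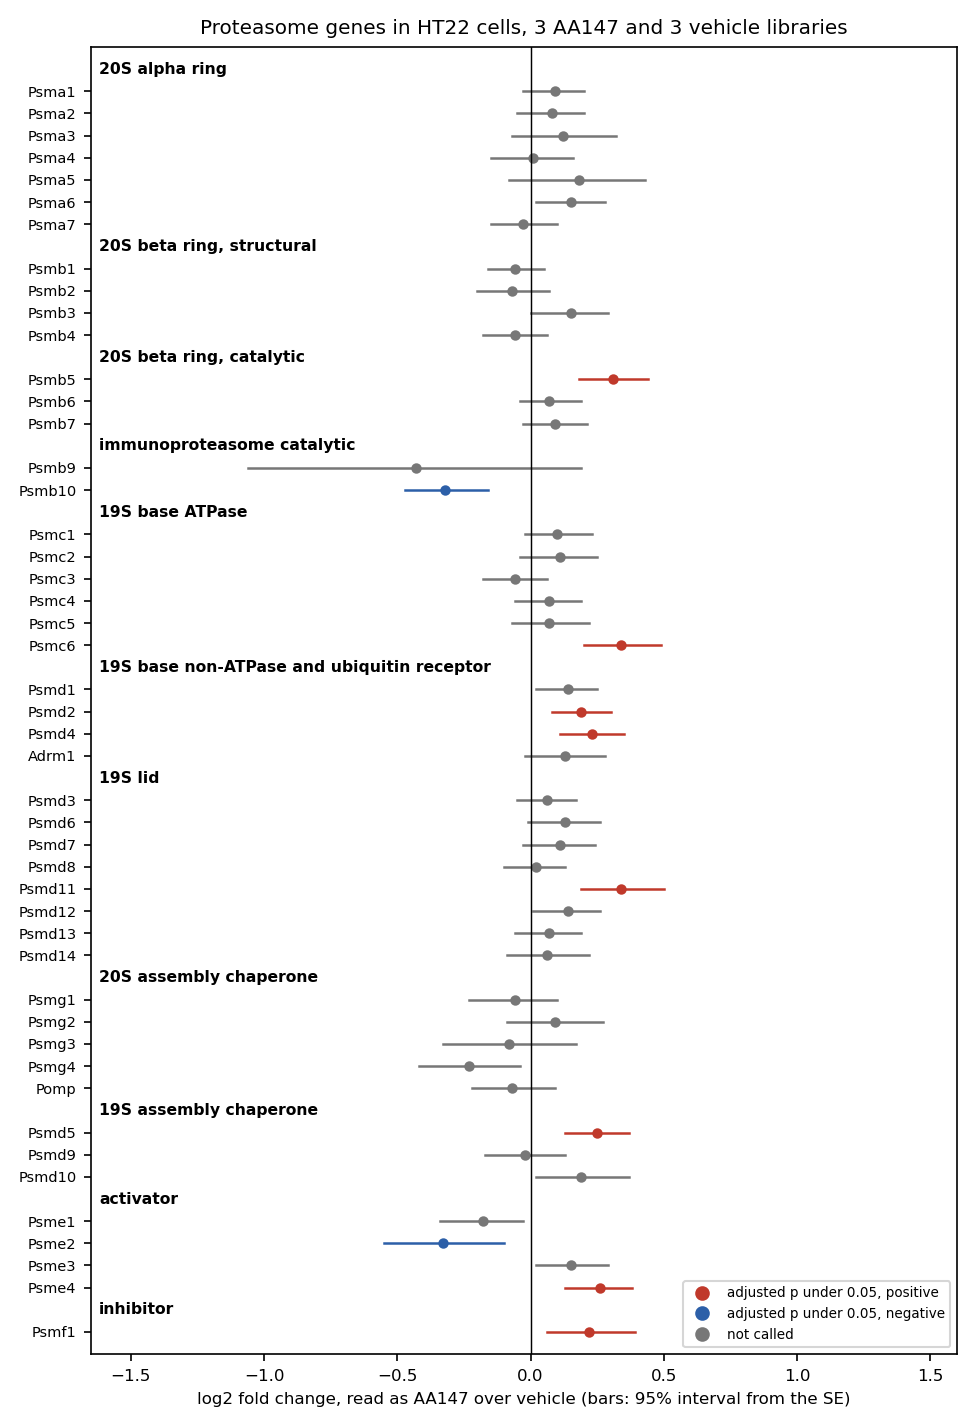
Log2 fold change of each of the 47 proteasome genes by class, with points for the authors' estimate and bars for the 95% interval from its SE. The 8 red positive calls lie between 0.19 and 0.34 and are spread over several classes, and the 2 blue negative calls are Psmb10 and Psme2.

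The 20S alpha ring, whose N-terminal tails close the pore of the core, had 0 of 7 genes called by DESeq2 and 1 at an unadjusted p under 0.05. The called share of all tested genes was 20.2%. In the authors' deposited table the values ran from -0.03 for Psma7 to 0.18 for Psma5, with a median of 0.09. Psma6 came nearest to a call, at 0.15 (adjusted p 0.0854, SE 0.065). Psma1 and Psma2 lay at 0.09 and 0.08 with SEs of 0.059 and 0.063 in the authors' deposited table, and Psma3 at 0.12 had a wider SE of 0.098. Psma4 lay at 0.01 with an interval from -0.15 to 0.16. The interval of Psma6, which is not adjusted for the number of genes, excluded 0, and those of the other alpha ring genes included it.

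The structural beta subunits, which carry no active site, also had 0 of 4 genes called by DESeq2, beside 20.2% of all tested genes, and 1 at an unadjusted p under 0.05. Psmb1, Psmb2 and Psmb4, with means of 11849, 8630 and 12479 in the authors' deposited table, lay at -0.06, -0.07 and -0.06. Psmb3 lay on the other side at 0.15 (adjusted p 0.15, SE 0.074).

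Of the catalytic beta subunits, Psmb5 was called and the others were not. Psmb5 carries the chymotrypsin-like site, the main target of inhibitors such as bortezomib. It had a mean of 2756 in the authors' deposited table and a log2 fold change of 0.31 (adjusted p 8.83e-05, SE 0.068), a 1.24-fold difference with an interval from 1.13 to 1.36. Taken at face value, this implies means of 2462 with vehicle and 3050 with AA147. Psmb6, the caspase-like subunit, lay at 0.07 (adjusted p 0.452, SE 0.06) and Psmb7, the trypsin-like subunit, at 0.09 (adjusted p 0.334, SE 0.062) in the authors' deposited table. The fold change of Psmb5 exceeded that of Psmb6 by 0.24 (interval 0.06 to 0.41) and that of Psmb7 by 0.22 (interval 0.04 to 0.40), if the errors of different genes are independent. In all, 8 such differences between genes were computed, for pairs chosen after their values were seen, and they are given as descriptions and not as tests. A processed pseudogene, Gm3375, matches 795 bases of the Psmb5 transcript at 99% identity, so reads may be shared. Psmb7 overlaps 405 exonic bases of Nek6 on the opposite strand, and Nek6 was called negative at -0.44 in the authors' deposited table. Reads from such a pair cannot be told apart in libraries without strand. The same holds for Psmb9 with Tap1, for Psmd13 with Cox8b and, on the same strand, for Psmg3 with Gm26938.

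Of the immunoproteasome's inducible catalytic subunits, Psmb9 and Psmb10 had negative values and Psmb10 was called, while Psmb8, the counterpart of Psmb5, was not analysed here. Psmb10, which takes the place of Psmb7, had a mean of 1238 and a log2 fold change of -0.32 (adjusted p 0.000726, SE 0.079) in the authors' deposited table, with implied means of 1373 with vehicle and 1102 with AA147. Its difference from Psmb7 was -0.41, with an interval from -0.61 to -0.21 under the same assumption, for a pair likewise chosen with its values known. Per kilobase of transcript, the implied level of Psmb10 was 17% of that of Psmb7 with vehicle and 12.8% with AA147, and per kilobase of coding sequence 19.6% and 14.7%. Psmb9, which takes the place of Psmb6, was weakly expressed, with a mean of 77.9 and a value of -0.43 (adjusted p 0.381, SE 0.32) in the authors' deposited table. Its interval ran from -1.06 to 0.19, and its difference from Psmb6 was -0.51 with an interval from -1.14 to 0.13. Per kilobase of transcript Psmb9 stood at 0.587% of the level of Psmb6, and 26.9% of its transcript overlaps the neighbouring Tap1 on the opposite strand. Tap1 had a mean of 1084 and was called negative at -0.31, so the value of Psmb9 may include reads from Tap1. In bulk RNA, a smaller share of cells with a transcript and less of it per cell cannot be told apart.

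Markers of other cell types also differed, in both directions. Leukocyte markers were low beside these values. Of the 5 looked for, Csf1r had a mean of 48 and Itgam of 1.71 in the authors' deposited table, and the other 3 were not analysed here. Csf1r was called positive at 0.95, and Itgam lay at -0.51 (SE 1.7) with no adjusted p. Of 8 mesenchymal markers, 7 were in the authors' deposited table, and 6 of these were called negative and 0 positive, with a median of -0.97. The negative share was 85.7%, beside 11.1% of all tested genes, of which 9.05% were called positive. The summed implied mean of these 7 markers was 623113 with vehicle and 285685 with AA147. Of 5 astrocyte markers looked for, 3 were in the authors' deposited table, where Slc1a3, a glutamate transporter with a mean of 927, was called negative at -1.30 (adjusted p 2.39e-45), and Aldh1l1 and Slc1a2 had means of 27.4 and 1.62. Their summed implied mean was 1353 with vehicle and 560 with AA147. In the authors' deposited table the neuronal tubulin Tubb3 was called positive at 0.43 (adjusted p 5.67e-05). The other neuronal markers had negative values, Stmn2 at -1.53 (SE 1.0) and Slc17a7 at -1.98 (SE 1.3), with means of 6.24 and 3.93 and no adjusted p. The summed implied mean of the 3 neuronal markers was 1038 with vehicle and 1381 with AA147, and Tubb3, with a mean of 1199, made up nearly all of it. The oligodendrocyte marker Mbp had a mean of 2 in the authors' deposited table and no adjusted p. The part of these cell type markers in the result was not tested.

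The 19S base opens the substrate path. Of its ATPases, Psmc6 alone was called, at 0.34 (adjusted p 6.51e-05, SE 0.074) with a mean of 5234 in the authors' deposited table, which implies 4615 with vehicle and 5854 with AA147. The other 5 ATPases lay between -0.06 and 0.11 with intervals that include 0. These were Psmc3 at -0.06, Psmc4 and Psmc5 at 0.07, Psmc1 at 0.10 and Psmc2 at 0.11 in the authors' deposited table. The ATPases form 1 ring with a single copy of each. Of its 6 genes 1 was called, 16.7%, near the 20.2% of all tested genes.

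The non-ATPase genes of the base include the scaffolds and the ubiquitin receptors. Psmd2 and Psmd1 are the scaffolds Rpn1 and Rpn2. Psmd2 was called at 0.19 (adjusted p 0.00736, SE 0.058), and Psmd1 lay at 0.14 (adjusted p 0.0929, SE 0.059) in the authors' deposited table. Psmd4, the receptor Rpn10, was called at 0.23 (adjusted p 0.00129, SE 0.06). Adrm1, the receptor Rpn13, lay at 0.13 (adjusted p 0.263, SE 0.077) and was not called in the authors' deposited table. All 4 genes had positive values, with a median of 0.16, and 2 were called positive. Of the 13597 tested genes, 7026 had a positive value and 9.05% were called positive. Adrm1b is 99.8% identical to Adrm1 over 1358 bases and Gm5422 is 96.4% identical to Psmd2 over 2726 bases, so the values of Adrm1 and Psmd2 are uncertain to the extent that reads were shared.

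The 19S lid removes the ubiquitin chain. Of the 8 lid genes of the rule 1 was called, 12.5%, beside 20.2% of all tested genes. It was Psmd11, which encodes Rpn6, at 0.34 (adjusted p 0.000132, SE 0.077). Its mean was 4571 in the authors' deposited table, which implies 4027 with vehicle and 5114 with AA147. Psmd14, the deubiquitinase Rpn11, lay at 0.06 with an interval from -0.09 to 0.22, and its partner Psmd7 at 0.11 with an interval from -0.03 to 0.24. Psmd3, with the highest mean count of the 47 genes before division by length, 19589, lay at 0.06 (SE 0.056) in the authors' deposited table. The other lid genes of the rule were Psmd8 at 0.02, Psmd13 at 0.07, Psmd6 at 0.13 and Psmd12 at 0.14. All 8 values were positive, beside 7026 of the 13597 tested genes. Sem1, a small cap subunit whose symbol lies outside the rule, is not among these 8. A730017L22Rik, a noncoding gene that is 97.9% identical to Psmd11 over 1501 bases, had a mean of 121 and lay at -0.06 (adjusted p 0.894, SE 0.20) in the authors' deposited table.

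Over the cap genes of the rule, 17 of 18 had a positive value, 4 were called positive and 0 negative by DESeq2, with a median of 0.11. The cap subunit Sem1, listed as Shfm1, lies outside the rule and was called negative at -0.26 (adjusted p 0.0435) by DESeq2. The called share of the 18 genes, 22.2%, was near the 20.2% of all tested genes, of which 9.05% were called positive. Of the 13597 tested genes, 7026 had a positive value. The summed implied means of the 18 cap genes were 130983 with vehicle and 142661 with AA147, a difference of 8.92%. Those of the constitutive core were 86470 and 88124, a difference of 1.91%. These sums describe the libraries and were not tested. The core and the cap were of similar precision, with a median SE of 0.065 in each.

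**Figure D2:**
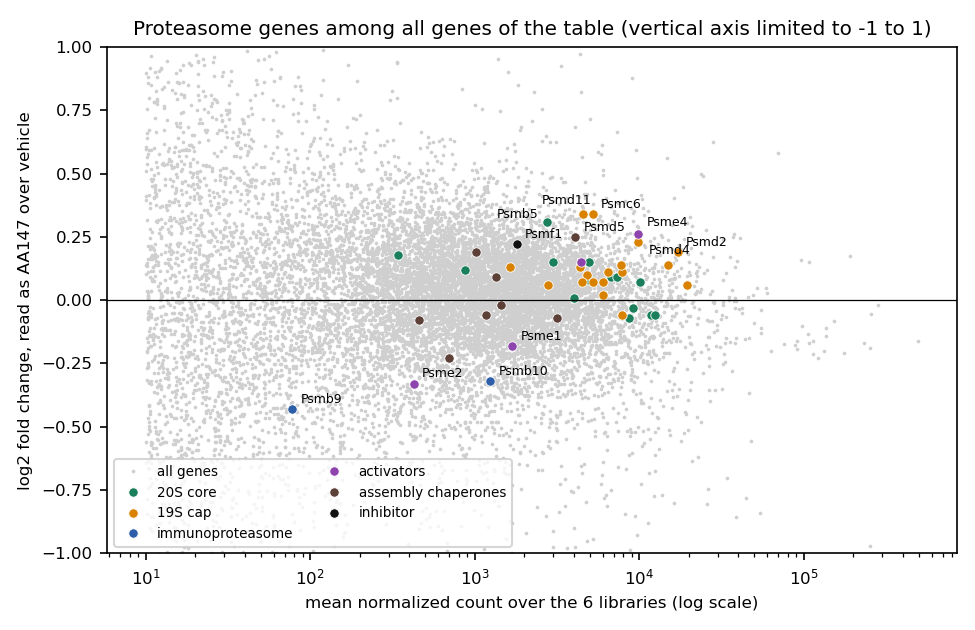
Log2 fold change against mean normalized count on a log scale for all genes with a mean of at least 10 (grey) and for the 47 proteasome genes by group (colours), with the called genes, Psmb9 and Psme1 named. Most of the proteasome genes lie in the upper part of the range of means, with a median of 4571 beside 740 for all tested genes. Some lie below 740, down to Psmb9 at 77.9. The 47 genes lie within the spread of genes of similar mean.

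Among the assembly chaperones, 1 of 8 genes was called, 12.5%, beside 20.2% of all tested genes. The called gene belongs to the cap's set. Psmg1 to Psmg4 and Pomp assemble the alpha ring and mature the beta ring, and DESeq2 called 0 of these 5 genes, with 1 at an unadjusted p under 0.05. Psmg4 had the lowest value, -0.23 (adjusted p 0.0696, SE 0.096), and Pomp lay at -0.07 (SE 0.08) in the authors' deposited table. Psmg1 at -0.06, Psmg3 at -0.08 and Psmg2 at 0.09 had intervals that include 0. Among the chaperones of the 19S base, Psmd5 was called at 0.25 (adjusted p 0.000395, SE 0.06). Psmd10, known as gankyrin, lay at 0.19 (adjusted p 0.104, SE 0.088) and Psmd9 at -0.02 (SE 0.076) in the authors' deposited table. The difference between the sets of chaperones was not tested.

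The activators were called in both directions, Psme2 negative and Psme4 positive. Psme1 and Psme2 encode the alpha and beta subunits of PA28, which is induced with the immunoproteasome. Psme2 was called negative at -0.33 (adjusted p 0.0259, SE 0.12) with a mean of 425, and Psme1 lay at -0.18 (adjusted p 0.0939, SE 0.081) with a mean of 1693 in the authors' deposited table. Psme2b, a copy that is 99.4% identical to Psme2 over 795 bases, had the larger mean of 3663 and was called negative at -0.37 (adjusted p 3.63e-06, SE 0.07) in the authors' deposited table. Reads of Psme2 and Psme2b may be shared, and both values had the same sign. Psme3, the nuclear PA28 gamma, lay at 0.15 (adjusted p 0.104, SE 0.068), and Psme4, the nuclear activator PA200, was called positive at 0.26 (adjusted p 0.000692, SE 0.063) with a mean of 9830 in the authors' deposited table. The difference of Psme1 from Psme3 was -0.34 (interval -0.54 to -0.13) and that of Psme2 from Psme3 was -0.48 (interval -0.74 to -0.22), if errors are independent. Psmf1, which encodes PI31, described as an inhibitor of the core in vitro, was called at 0.22 (adjusted p 0.0369, SE 0.083) in the authors' deposited table. That call is close to the threshold and was lost when the centre of all fold changes moved by 0.01, at an adjusted p of 0.0538.

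The 4 genes of the interferon-inducible form, Psmb9, Psmb10, Psme1 and Psme2, had values from -0.43 to -0.18 in the authors' deposited table, and their summed implied means differed by -16.2%. This set was formed after its values were seen, and no test was made of it. Among 8 genes of antigen presentation by MHC class I, 3 were called negative and 0 positive by DESeq2, or 37.5% negative against 11.1% of all tested genes. These were Tap1, which overlaps Psmb9, at -0.31, Tapbp at -0.34 and Erap1 at -0.32 in the authors' deposited table. Tap2 at -0.11, B2m at -0.01 and H2-D1 at 0.12 were not called, nor was H2-K1, whose mean was 21.2 in the authors' deposited table. The regulator Irf1 lay at 0.04 (adjusted p 0.808, SE 0.074) and was not called in the authors' deposited table.

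Levels per length varied widely within the core, although the particle holds its subunits in equal numbers. Per kilobase of transcript, the means of the 14 core genes ran from 244 for Psma3 and 245 for Psma5 to 9803 for Psmb6 and 10549 for Psmb4, a 43.2-fold range. Per kilobase of coding sequence the range was 34.6-fold, from 476 for Psma5 to 16457 for Psmb1. The order, its ends included, depends on the length used, and Psmb1 stood at 1974 per kilobase of transcript. The lowest genes have close copies, with Psma5-ps 98.6% identical to Psma5 over 952 bases and Gm13835 100% identical to Psma3 over 665 bases. Genes at higher levels have them too, such as Psmb3, at 3849 per kilobase of transcript, with Gm6467 97.5% identical over 747 bases. In all, 10 of the 47 genes had a copy at least 95% identical over at least 50% of the coding length, 4 of them called. The cap genes of the rule ran from 1047 for Adrm1 to 9044 for Psmd3 per kilobase of transcript. The medians were 2998 for the core, 3765 for the cap, 960 for the assembly chaperones and 726 for the activators on the same scale.

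Genes around the proteasome gave no common direction. In the list of NFE2L1 and its processing, 2 of 8 genes were called negative and 0 positive by DESeq2. The called share of 25% was near the 20.2% of all tested genes, of which 11.1% were called negative. Nfe2l1 itself had a mean of 6623 and a value of -0.02 (SE 0.061) in the authors' deposited table, with an interval from -0.14 to 0.10. Ngly1, the glycanase that processes it, was called at -0.28 (adjusted p 0.0342, SE 0.1), and Ddi2, the protease that cleaves it, lay at 0.13 (SE 0.099) in the authors' deposited table. Nfe2l2 was called at -0.21 (adjusted p 0.0174, SE 0.069). Mafg, Mafk, Maff and Vcp were not called, and Mafk had the lowest value of the list at -0.31 (adjusted p 0.149, SE 0.15) in the authors' deposited table.

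Of 10 genes whose products associate with the proteasome, 2 were called in each direction, or 20% each, beside 9.05% positive and 11.1% negative among all tested genes. The deubiquitinases of the cap had opposite signs, with Usp14 at -0.37 (adjusted p 8.24e-08, SE 0.062) and Uchl5, which docks on the product of Adrm1, at 0.30 (adjusted p 0.00335, SE 0.085) in the authors' deposited table. The difference of Usp14 from Psmd2, on which its product docks, was -0.56 with an interval from -0.72 to -0.39, and that of Uchl5 from Adrm1 was 0.18 with an interval from -0.05 to 0.40, if errors are independent. Zfand2a, an arsenite-inducible proteasome-binding protein, was called at 0.45 (adjusted p 0.000793, SE 0.11). Shfm1, an older symbol of Sem1, the smallest cap subunit, was called at -0.26 (adjusted p 0.0435, SE 0.097) in the authors' deposited table, opposite to the other cap genes that were called. AI314180, an older symbol of Ecpas, lay at -0.10 with a mean of 14832.

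Among genes of ubiquitin and its receptors, the ubiquitin genes Ubb and Rps27a were not called, with values of -0.08 and -0.16 in the authors' deposited table. Of the activating enzymes, Uba6 was called at 0.45 (adjusted p 5.77e-05, SE 0.097), and Uba1 lay at 0.00 with an interval from -0.10 to 0.11. In a list of 6 ubiquitin receptors, 1 was called positive and 0 negative by DESeq2, or 16.7% positive against 9.05% of all tested genes. The call in the authors' deposited table was that of Tax1bp1 at 0.18 (adjusted p 0.0465), which is known as a receptor of selective autophagy and not as a shuttle to the proteasome. The shuttle genes Rad23b, Ubqln1, Ubqln2, Ubqln4 and Ddi2 were not called, with values from 0.01 to 0.13 in the authors' deposited table. Of 7 cofactors of the unfoldase VCP, Nploc4 at 0.22 (adjusted p 0.00338) and Ufd1l at 0.25 (adjusted p 0.0047), which form 1 heterodimer, were called positive and 0 negative, or 28.6% positive against the same 9.05%. Vcp itself lay at 0.12 (adjusted p 0.236, SE 0.07) in the authors' deposited table.

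**Figure D3:**
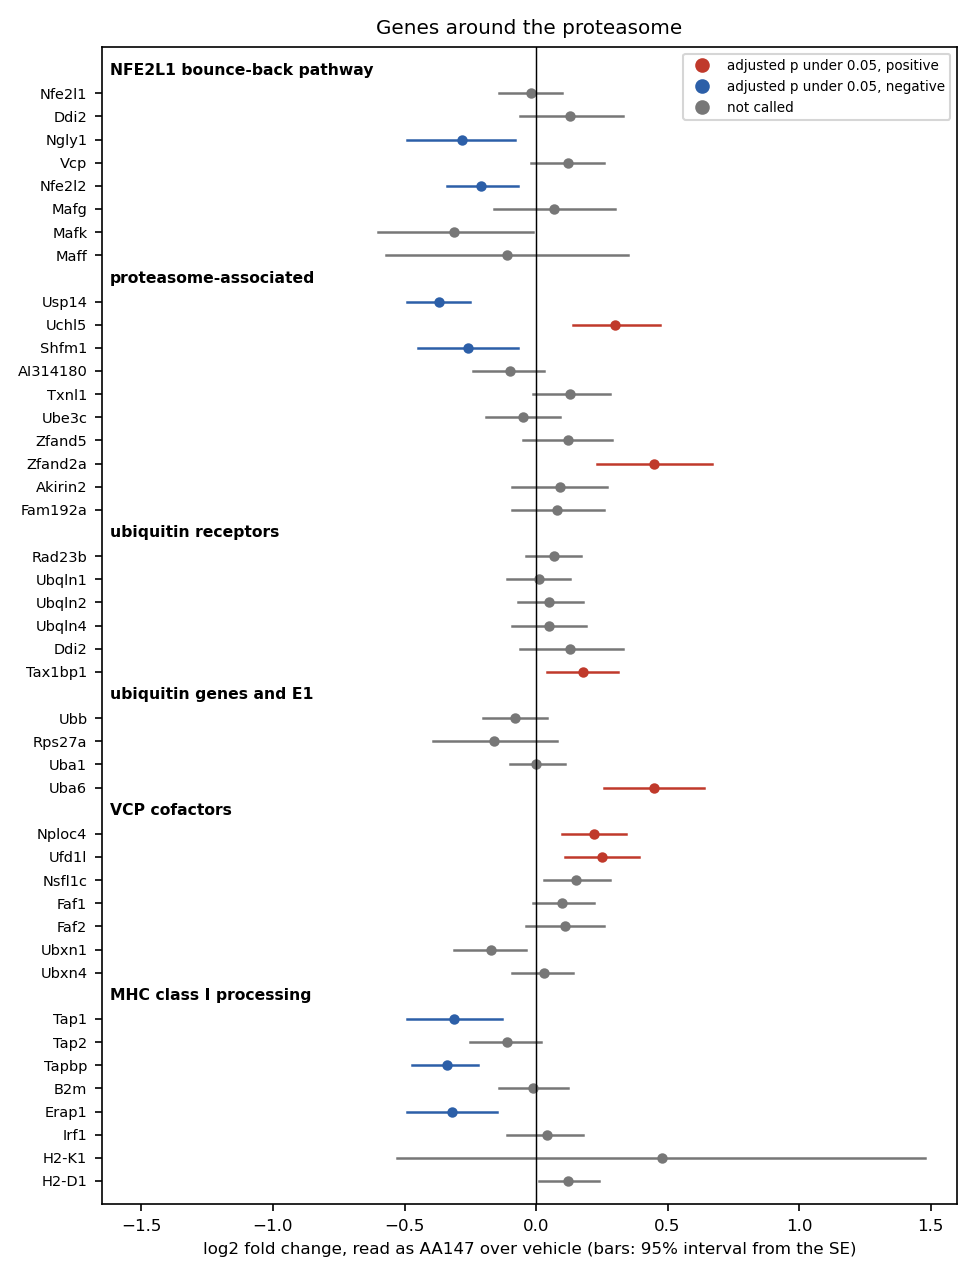
Log2 fold change of the genes in 6 lists around the proteasome, with points for the authors' estimate and bars for the 95% interval from its SE; Ddi2 is in 2 lists. Calls occur in both directions, with Uba6 and Zfand2a at 0.45 the highest called and Usp14 at -0.37 the lowest.

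A trend of fold changes on transcript length, GC content and mean was fitted across genes. The shift it implies for a proteasome gene lay between -0.09 and 0.09. With the trend subtracted, 11 proteasome genes were positive and 2 negative at an adjusted p under 0.05, of which 7 and 1 had been called as deposited. Of the 9620 genes with a trend value, 23.5% were then called, 10.2% positive and 13.3% negative. Psma6 at 0.18, Psmb3 at 0.22, Psmd1 at 0.15 and Psmd3 at 0.15 were then called positive and Psme1 at -0.21 negative. Psmf1 at 0.20 (adjusted p 0.0615) and Psme2 at -0.29 (adjusted p 0.0539) were no longer called. Psmb5 at 0.35, Psmd11 at 0.34, Psmd4 at 0.31, Psmc6 at 0.26 and Psmb10 at -0.27 were called in both ways.

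**Figure D4:**
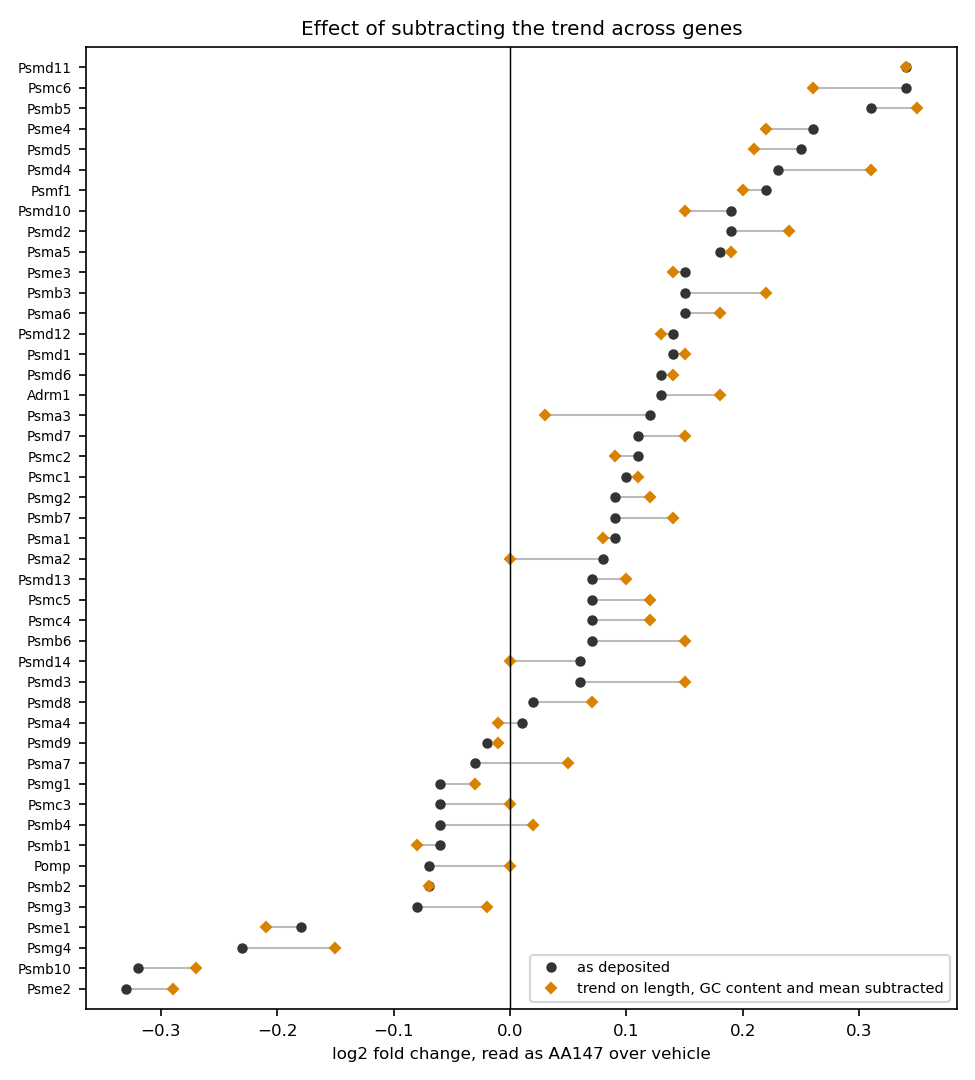
Log2 fold change of 46 proteasome genes as deposited (dark circles) and after the trend on length, GC content and mean was subtracted (orange diamonds); Psmb9, below a mean of 100, has no trend value. The called genes keep their sign, and the shifts reach those of Psmd3, from 0.06 to 0.15, and Psma3, from 0.12 to 0.03.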

How the data were processed

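HT22 mRNA was sequenced without strand information in 3 AA147 and 3 vehicle libraries, per the labels' protocols. The comparison was made with DESeq2 on mouse build mm9, per the submitters' processing notes; the aligner, counter, annotation and versions are not given in the sources used here. The authors deposited, per gene, a mean normalized count (a signal per average library, after size-factor scaling), a log2 fold change with its SE on the log2 scale, a score (the fold change divided by its SE), a p-value with and without adjustment. The adjustment matched that of Benjamini and Hochberg over 13597 genes within 7.58e-07. All 47 proteasome genes had one. The depth of each library is unknown. Means summed to 30768012.

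The genes, classes and lists were chosen with earlier results of these data known, all genes of the rule are named, and the list members named are those called or with the largest absolute change, plus genes of stated roles chosen after their values were seen. Implied group means assume that the table's mean is the average of equal groups. Lengths, exon overlaps and copies came from canonical transcripts of GENCODE M39 (GRCm39) with BLAST 2.17.0 and bedtools 2.31.1; these transcripts include long isoforms that may not be those expressed. The trend on length, GC content and mean came from robust regression (linear and squared terms) of 9620 genes, 90.5% of those whose mean was 100 or more. Some members of the lists are not reported here. Code was tested on simulated data. Software was statsmodels 0.14.6, SciPy 1.17.1, pandas 2.3.3 and Python 3.11.15.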

Additional observations from a re-analysis of the deposited data

How the results depend on the processing

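No paired analysis was possible because only 1 line per gene was at hand, and for the same reason leaving out replicates, other normalizations and other tools were not run. The count of 2741 genes called fell to 1818 when the limit on the adjusted p was 0.01, to 1733 with a limit of 0.3 on the size of the log2 change and to 774 with a Bonferroni adjustment, each stricter by construction. The 8 positive and 2 negative proteasome calls became 7 and 1 at an adjusted p under 0.01, 3 and 2 with the fold limit, which left Psmb5, Psmc6, Psmd11, Psmb10 and Psme2, and 0 and 0 with Bonferroni, where Psmc6 at 0.0506 and Psmb5 at 0.0717 came nearest. Adjustment over every gene with a p, or over genes with a mean of at least 100, kept the same 8 and 2 genes. Centring, by 0.01, gave 7 and 2 and lost Psmf1. Subtracting the trend, chosen after the data were seen, gave 11 and 2. The median of the 47 genes ranged from 0.06 as a mean to 0.12 with the trend subtracted, and no called gene reversed. Levels per kilobase moved by more than 2 times between transcript and coding length for 17 genes. Precision limits Psmb9 most, at a mean of 77.9.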
